A study of Danio rerio with 12 samples.

Results

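The photolyase gene cry5 and the DNA repair genes ercc3, neil1 and mre11a were followed in the zebrafish pineal gland across the circadian cycle, with and without a pulse of light. Members were the probe sets to which the platform annotation gives exactly 1 symbol among these 4 genes. This gave 5 probe sets, 2 for cry5 and 1 for each other gene, and 4 of the 8793 genes that the array names. Ercc3, neil1 and mre11a were taken up because they had the smallest light p-values in a shorter list of repair genes in an earlier analysis of the same arrays, so their light differences are descriptions of chosen genes. In the longer repair and damage signalling lists used here cry1a, cry1b, hmgb1a, tcea1, chek2, gadd45ga and sesn3 had smaller adjusted p-values than neil1. Cry1a, cry1b and gadd45ga also had smaller ones than mre11a. These lists hold 1 probe set per gene. The other kept probe set of cry2 had a smaller adjusted p-value than any member (0.0961 by limma).

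The 12 arrays carried 1 RNA pool each, made from 12 pineal glands of adult males and females, 0.5 to 1.5 years old, of the line Tg(aanat2:EGFP)Y8. In this line a green fluorescent protein is driven by regulatory regions of aanat2, the pineal gene of melatonin synthesis, so the gland can be seen during dissection. In the light group, 6 pools came from fish that were in darkness from the previous evening and then spent the last 1 h before dissection in light of 12 W/m2, with a pool at every 4 h of circadian time (CT), from CT2 to CT22. In the dark group, 6 pools came from fish left in darkness until dissection at the same times. CT counts hours from subjective dawn, and there was 1 pool for each time and treatment.

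Photolyases are flavin enzymes that use the energy of blue light to reverse ultraviolet damage in DNA, and they share their fold with the cryptochromes of the circadian clock. Cry5 encodes the (6-4) photolyase, which undoes bonds between neighbouring pyrimidines, and its transcript is known to be induced by light in zebrafish embryos and cell lines. The other 3 genes belong to pathways that need no light for the repair reaction. Ercc3 encodes the XPB helicase of TFIIH, the complex that opens DNA both at promoters and around bulky lesions in nucleotide excision repair. Neil1 encodes a glycosylase that removes oxidised bases in base excision repair. Mre11a encodes the nuclease of the complex with Rad50 and Nbn that first binds double-strand breaks.

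The values are deposited MAS5 signals, a linear intensity per probe set in arbitrary units. Differences are on the scale of log2(signal + 13), which understates changes of weak probe sets. Folds are taken from these differences, so they are smaller than ratios of the printed signals. All 5 probe sets passed the filter on low signals (a mean log2 value of 6.16 over the 12 arrays). However, neil1 (6.20) and ercc3 (6.24) lay just above it, mre11a was at 6.51 and the cry5 probe sets at 6.65 and 7.50. Neil1 averaged 6.40 in light but 5.99 in the dark, and ercc3 6.62 in the dark but 5.85 in light. Each thus passed the filter only through the group where it was higher. Light was tested with limma in a model with circadian time as a 6-level block. The 6 times therefore act as replicates, and a p-value takes its error from how the difference varied among times and pools. In limma this error, and with it the SE, is drawn towards that of probe sets of like signal. A probe set with an adjusted p under 0.05 is said to be called, and 95% intervals are not adjusted for the number of probe sets.

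The pineal identity genes exorh, an opsin gene, and aanat2 were strongly detected on every array, at signals of 858 to 1966 and 636 to 4681 in light and of 720 to 2081 and 586 to 2728 in the dark. Per2, a light-inducible clock gene, was 3.08-fold higher in light on average over the 6 times (a log2 difference of 1.62 with an SE of 0.20; limma, adjusted p = 0.00183), and light was above dark at each of them. The mean log2 level of 18 spiked-in bacterial and phage probe sets was 10.30 to 11.20 on all 6 light arrays and 10.62 on the dark array of CT22, but 9.58 to 9.83 on the other 5 dark arrays. Median signals were 82.8 to 99.5 on the light arrays and 70.3 to 94.7 on the dark arrays, and light was the higher at each time. Only at CT22 were the light and dark arrays of 1 spike-in class. Those pools differed in the summed signals of 10 brain neuron markers, 17937 in light and 9496 in the dark. At CT14 and CT18 the dark sums were the higher, 16395 and 19419 against 9853 and 9799 in light. Summed signals of 6 skeletal muscle markers were 620 to 1203 on the light arrays and 306 to 606 on the dark arrays, without overlap, and all 6 had a positive light difference, with 1 called. All 8 kept leukocyte markers also had a positive light difference, with a median of 0.36 log2 and 0 called, and summed signals of 2592 to 6167 in light and 2473 to 4421 in the dark. Of 14 kept skin markers, 13 had a positive light difference, with a median of 0.28 log2 and 0 called. Their summed signals were 2241 to 10479 in light and 1739 to 6979 in the dark. Other lists leaned the other way. The light difference was negative for 6 of 9 red blood cell markers, with 1 called lower. It was also negative for 7 of 10 brain neuron markers and 5 of 7 proliferating cell markers, with 0 called.

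No member was called for light, for time of day, or for a light response that varied over the cycle. Mre11a and neil1 averaged higher in light, by 1.43-fold and 1.33-fold, cry5 by 1.25-fold on both probe sets, and ercc3 averaged 1.70-fold lower. In the whole table, 1.58% of the 9301 tested probe sets were called higher in light and 0.731% lower. The share called in either direction, 2.31%, is the background for the members' count of 0 of 5. In pooled tissue, fewer cells of a type and less RNA per cell cannot be told apart.

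**Figure D1:**
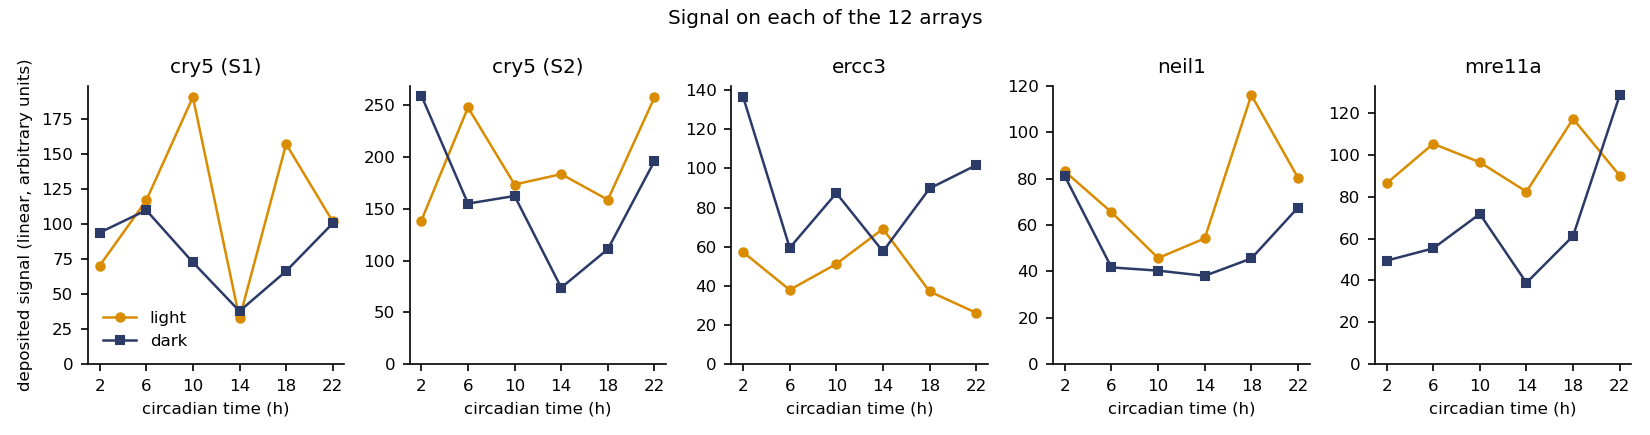
Deposited signal (linear, arbitrary units, axis from 0) of the 5 member probe sets against circadian time in hours, on the 6 light arrays (orange circles) and the 6 dark arrays (blue squares), 1 pool per point. Ercc3 lay lower in light at every time but CT14, neil1 lay higher at every time, and all 5 probe sets had their lowest dark value at CT14.

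Of the cry5 probe sets, the brighter one (S2, after the ending of its identifier) read 139, 248, 173, 183, 159 and 258 in light at CT2 to CT22 and 259, 155, 162, 73.8, 111 and 196 in the dark. It was higher in light at 5 of 6 times and lower at CT2, where the dark pool held the highest value of all 12. Of all tested probe sets, 20.3% were higher at 5 or 6 times. The light and dark values overlapped. The mean difference was 0.32 ± 0.22 log2 (limma SE over 6 pairs, adjusted p = 0.482 by limma, 95% interval -0.16 to 0.80). The interval runs up to a 1.74-fold increase, so a rise of that size is not shown to be absent.

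The other cry5 probe set (S1) read 70.3, 117, 191, 32.6, 157 and 102 in light and 93.9, 110, 72.7, 37.8, 66.4 and 101 in the dark. The widest gaps were at CT10 and CT18, where light was higher 2.38-fold and 2.14-fold, and at the other 4 times the gap was at most 1.28-fold. Its mean difference was also 0.32 ± 0.24 log2 (limma SE over 6 pairs, adjusted p = 0.510 by limma, 95% interval -0.20 to 0.84). The means of the probe sets are thus close, but they rest on different times. S2 had its largest difference at CT14 (1.18 log2), where S1 was at -0.16, while S1 had its largest at CT10 (1.25), where S2 was at 0.09. Without CT14 the S2 difference was 0.14, and without CT2 it was 0.55. Without CT10 or CT18 the S1 difference was 0.14 or 0.17. Skin markers had their highest sum, 10479, on the light array of CT10, where S1 was also highest. At CT14, however, S1 was lowest in both groups. The skin sum there was 6979 in the dark, the highest of the dark arrays, and 4994 in light. The part of skin markers in the S1 values was not tested.

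Across the 12 arrays the log2 values of the cry5 probe sets had a Pearson correlation of 0.46 (permutation p = 0.144, adjusted p = 0.287 over 10 pairs of member probe sets) and a Spearman rho of 0.34 (permutation p = 0.275, adjusted p = 0.393). Without the 2 arrays farthest from the median of S1, r was 0.28. Within the 6 dark arrays r was 0.84 (exact permutation p = 0.0611), and within the 6 light arrays it was 0.06 (exact permutation p = 0.939). Both within-group values had adjusted p above the threshold over 20 such relations (0.244 and 0.950). The probe sets followed each other in the dark more closely than in light, but the difference between these correlations was not tested.

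Ercc3 had the largest light difference of the 4 genes. It read 57.2, 37.9, 51.2, 69.1, 37.1 and 26.2 in light at CT2 to CT22 and 137, 59.4, 87.4, 57.6, 89.8 and 102 in the dark. The light value was the lower at 5 of 6 times, and the widest gap was 2.93-fold at CT22. Only at CT14 was light higher, by 0.22 log2, and this pair made the groups overlap. The mean difference was -0.77 ± 0.24 log2 (limma SE over 6 pairs, adjusted p = 0.123 by limma, 95% interval -1.29 to -0.25). A difference of the lower sign at 5 or 6 times was seen in 16.7% of all tested probe sets.

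The ercc3 difference was the member result closest to a call. After quantile normalization between arrays it was -0.94 ± 0.21 log2 and passed the threshold (adjusted p = 0.0458 by limma), where 0.688% of probe sets were called lower in light. The adjusted p lay between 0.0458 and 1.00 over 14 alternatives, and quantile normalization was the only one to pass. The light mean of ercc3 stayed the lower under all 14. Quantile normalization made the positive differences of the other members smaller than as deposited. They were then 0.22 for neil1, 0.31 for mre11a, and 0.26 (S2) and 0.15 (S1) for cry5, none of them called. At CT22, where light and dark had like spike-in levels, the ercc3 difference was -1.55 log2, larger than its mean over all times. The CT22 pools were unlike in brain neuron markers, which summed to 17937 in light and 9496 in the dark. At CT14 and CT18 these sums were higher in the dark, 16395 and 19419, than in light, 9853 and 9799. The part of these markers in the ercc3 difference was not tested. Among the 7 arrays of the higher spike-in class the ercc3 difference was -0.99, with the dark side resting on 1 array.

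Neil1 read 83.2, 65.6, 45.8, 54.3, 116 and 80.5 in light and 81.1, 41.7, 40.4, 38.1, 45.6 and 67.6 in the dark. Light was the higher at all 6 times, by 1.02-fold at CT2 and 2.20-fold at CT18 at the extremes. Of all tested probe sets, 5.97% were higher at all 6 times. The groups overlapped, since the dark value of CT2 exceeded 4 of the light values. The mean difference was 0.41 ± 0.21 log2 (limma SE over 6 pairs, adjusted p = 0.340 by limma, 95% interval -0.05 to 0.87). It was 0.26 without CT18. The light array of CT18 also had the highest sum of skeletal muscle markers, 1203. Their part in the neil1 value was not tested.

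Mre11a read 86.4, 105, 96.5, 82.4, 117 and 90.1 in light and 49.5, 55.3, 71.8, 38.9, 61.2 and 128 in the dark. The light values were close together, at 96.3 ± 13.0 (SD, n = 6), and the dark values were wider apart, at 67.5 ± 31.8 (SD, n = 6). Light was the higher at 5 of 6 times, by 0.37 to 0.88 log2, and at CT22 it was the lower, by 0.46 log2. The mean difference was 0.51 ± 0.21 log2 (limma SE over 6 pairs, adjusted p = 0.241 by limma, 95% interval 0.05 to 0.97). Without CT22, the only pair of 1 spike-in class, it was 0.70 (adjusted p = 0.0699 by limma). Leaving out any other time gave 0.44 to 0.54 (adjusted p from 0.329 to 0.439 by limma). The sum of skeletal muscle markers was highest among the light arrays at CT18 (1203) and among the dark arrays at CT22 (606), where mre11a was highest in each group. It was lowest of all 12 arrays in the dark at CT14 (306), as mre11a was. In light, however, that sum was lowest at CT6 (620), where mre11a was second highest. Mre11a was lowest in light at CT14, where the sum was 655. The part of these markers in the mre11a values was not tested.

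**Figure D2:**
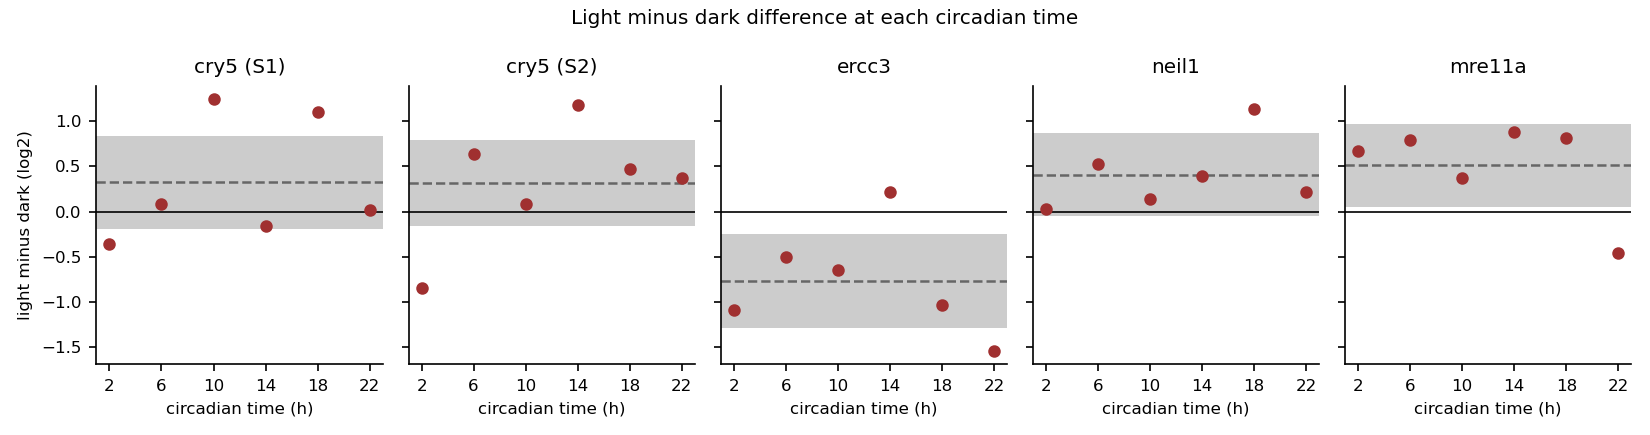
Light minus dark difference (log2) of each member probe set at each circadian time in hours (red points, 1 pair of pools each), with the mean over 6 times (dashed line) and its 95% interval from limma (grey band). The bands of cry5 and neil1 include 0, and the pair that departs from the others is CT14 for ercc3 and CT22 for mre11a. The bands are not adjusted for the number of probe sets, and no member was called. Ercc3, neil1 and mre11a were chosen for small light p-values on these same arrays, so bands clear of 0 follow from that choice.

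The mre11a values did not overlap between the spike-in classes, which differ from the light and dark groups by 1 array. The 7 arrays of the higher class, the 6 light arrays and the dark array of CT22, read 82.4 to 128, and the 5 dark arrays of the lower class read 38.9 to 71.8. Of all tested probe sets, 3.03% lay wholly above in the higher class. Because 6 of the 7 arrays of the higher class are the light arrays, light and class cannot be told apart for mre11a except at CT22, where the dark pool was the higher. With class in a model, that 1 dark array is the only one set against light arrays of its own class. In a model that also held spike-in class, mre11a differed by -0.41 ± 0.36 log2 (SE, adjusted p = 0.988 by limma), and with spike-in level it was -0.05 ± 0.33 (SE, adjusted p = 0.973 by limma).

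The other probe sets overlapped between the classes. S2 of cry5 read 139 to 258 in the higher and 73.8 to 259 in the lower class, and S1 read 32.6 to 191 and 37.8 to 110. Neil1 read 45.8 to 116 in the higher and 38.1 to 81.1 in the lower class. Ercc3 read 26.2 to 102 in the higher class and 57.6 to 137 in the lower, and its dark value of CT22, 102, stood among the dark values and not among the light ones. With class in the model, and so with the dark side again resting on the CT22 array, the cry5 differences were 0.05 (S2) and -0.02 (S1), that of neil1 was 0.48 and that of ercc3 was -1.01, none of them called.

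**Figure D3:**
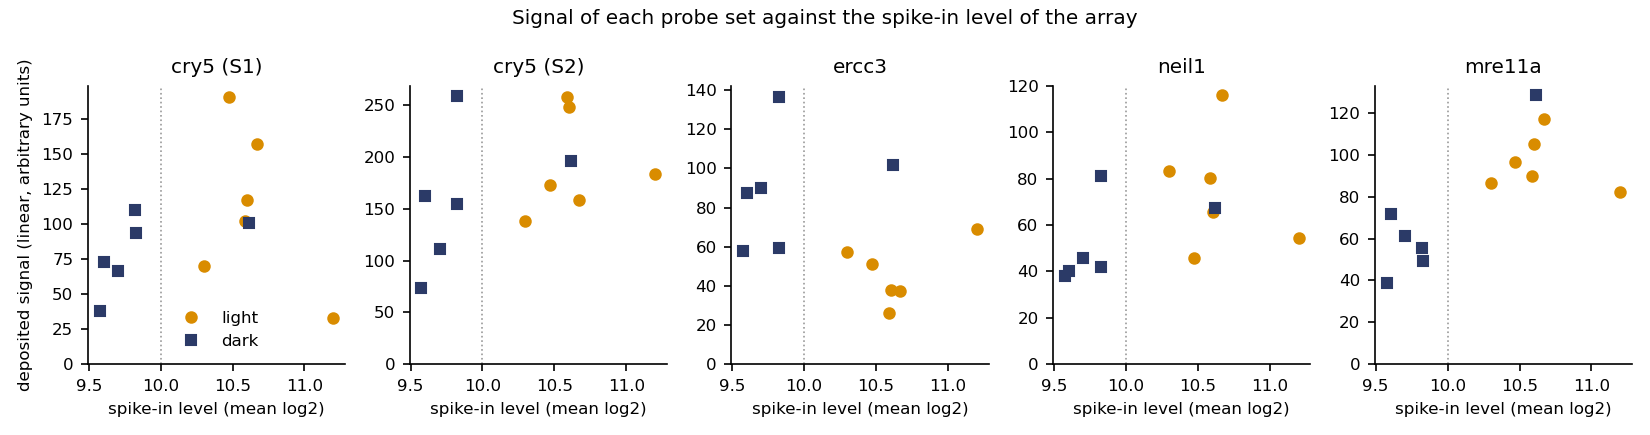
Deposited signal (linear, arbitrary units, axis from 0) of each member probe set against the mean log2 level of the 18 spiked-in probe sets on the same array, for light (orange circles) and dark arrays (blue squares). The dotted line at 10 parts the spike-in classes. The dark array of CT22, at 10.62, reads 128 for mre11a, above all light arrays and all other dark ones. For ercc3 it reads 102, above all light arrays and within the range of the other dark ones.

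No member was called for time of day. A cosine and sine of 24 h period were tested beside the light term, and 1.98% of all tested probe sets were called. Neil1 had the largest amplitude, 0.40 ± 0.14 log2 (SE) with a fitted peak at CT22.8 (adjusted p = 0.273 by limma). S2 of cry5 followed with 0.37 ± 0.15 and a peak at CT2.4 (adjusted p = 0.397 by limma), and S1 had 0.32 ± 0.22 with a peak at CT3.1 (adjusted p = 0.682 by limma). Mre11a had 0.16 ± 0.16 and ercc3 0.06 ± 0.17. The median over all tested probe sets was 0.20, and the smallest amplitude among called ones was 0.40, so neil1 was at the low end of what passed elsewhere.

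In the dark the member genes had a common low point. All 5 probe sets had their lowest dark signal at CT14, 37.8 and 73.8 for S1 and S2 of cry5, 57.6 for ercc3, 38.1 for neil1 and 38.9 for mre11a. The highest dark values were at CT2 for S2, ercc3 and neil1, at CT6 for S1 and at CT22 for mre11a. The span from the lowest to the highest dark array was 3.14-fold for S2 of cry5, 2.42-fold for S1, 2.73-fold for mre11a, 2.12-fold for ercc3 and 1.84-fold for neil1. CT14 was the lowest dark array for 22.6% of all tested probe sets, and that array also had the lowest median signal of the 12, 70.3, the lowest spike-in level, 9.58, and the lowest sum of skeletal muscle markers, 306. Its sum of 10 brain neuron markers, 16395, was the second highest of the dark arrays. The part of these in the low values was not tested.

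After quantile normalization, chosen after seeing the data, CT14 was still the lowest dark array for both cry5 probe sets and mre11a, while ercc3 and neil1 were lowest at CT6. CT14 was then the lowest for 18.4% of probe sets. From the dark arrays alone, the amplitudes were 0.67 (S2) and 0.53 (S1) for cry5, 0.43 for neil1, 0.37 for ercc3 and 0.31 for mre11a. None passed the threshold there (adjusted p from 0.195 to 0.729 by limma). From the light arrays alone, the S2 and S1 amplitudes were 0.07 and 0.15. The lowest light array was CT14 for S1 and mre11a, CT2 for S2, CT22 for ercc3 and CT10 for neil1.

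The members also differed in how they moved together. Within the 6 dark arrays all 10 correlations between member probe sets were positive, from 0.35 to 0.87, with ercc3 and neil1 the closest (exact permutation p = 0.0139, adjusted p = 0.244 over 20 relations). Within the 6 light arrays ercc3 correlated negatively with each of the other 4 probe sets, from -0.64 to -0.49. No within-group correlation passed after adjustment. Probe sets on 1 array share its scaling and pool, and the dark arrays differed in median signal from 70.3 to 94.7. How often other pairs of probe sets correlate positively on these arrays was not tested.

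The light response was not shown to change over the cycle for any member. In the test of light by cosine and sine, limma called 0.0% of the 9301 probe sets, with 864 at an unadjusted p under 0.05. In the test of subjective night (CT14, CT18, CT22) against day (CT2, CT6, CT10) it called 0.0%, with 296 at an unadjusted p under 0.05. S2 of cry5 had the widest contrast, a light difference of 0.67 ± 0.44 log2 in subjective night and of -0.04 ± 0.75 in subjective day (SD, n = 3 each). The difference between these was 0.71 ± 0.41 (SE, adjusted p = 1.00 by limma). S1 gave 0.32 in both. The ercc3 means were -0.79 and -0.75 in night and day, those of neil1 0.58 and 0.23, and those of mre11a 0.41 and 0.61.

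Beyond the 4 members, 7 lists of repair genes held 172 symbols, of which 96 had a probe set and 56 passed the filter. The lists were drawn up with earlier results of these data known. None of the 56 was called for light, and 26 had a positive difference. The median difference was -0.02 log2 with the members and -0.03 over the 52 others, against 0.02 over all tested probe sets, of which 53.1% were positive. For time of day 1 of 56 was called.

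That gene was cry2, a cryptochrome of the clock's negative limb and not a repair enzyme, with an amplitude of 0.90 ± 0.13 log2 and a fitted peak at CT19.6 (adjusted p = 0.00400 by limma). The gene's other kept probe set was also called, at 1.13 with a peak at CT20.4 (adjusted p = 0.000716 by limma). All 5 kept genes of the photolyase and cryptochrome family had a positive light difference, and 0 of 5 were called. With 1 probe set per gene, cry1b (0.52 ± 0.21) and cry1a (0.50 ± 0.18), both cryptochromes, had the largest. Then came cry5, cry2 (0.16 ± 0.18) and cpdp (0.16 ± 0.19), the photolyase gene for cyclobutane dimers. The other cry2 probe set had a larger difference than any of these, 0.56 log2, and was not called (adjusted p = 0.0961 by limma). Cpdp averaged 104 ± 22.0 in light and 91.5 ± 18.2 in the dark (SD, n = 6 each) and was higher at only 3 of 6 times. The last photolyase-like gene, cry-dash, lay below the filter at a mean log2 of 6.12. It read 35.3 to 173 in light and 26.0 to 54.8 in the dark, a difference of 0.77 ± 0.27 when no filter was set (adjusted p = 0.209 by limma).

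In nucleotide excision repair 12 of 15 kept genes had a negative light difference, with a median of -0.07 log2, and 0 were called in either direction. After ercc3, tcea1, an RNA polymerase II elongation factor (-0.39 ± 0.17), and xpa, a scaffold protein that checks the lesion (-0.39 ± 0.20), were lowest, and gtf2h4 (0.23 ± 0.15) and gtf2h1 (0.19 ± 0.27) were highest. The last pair encode subunits of TFIIH, as ercc3 does. Of 4 kept TFIIH genes 2 were positive and 2 negative, the fourth being gtf2h5 (-0.11 ± 0.15). Ercc3 was chosen for a small light p-value on these same arrays and passed the filter only through its dark values. That its difference was larger than those of its partners follows from that choice. Ercc2, the gene of the other TFIIH helicase, lay below the filter and differed by 0.61 ± 0.27 without it (adjusted p = 0.311 by limma). The damage sensors ddb2 (0.71 ± 0.25, higher at 6 of 6 times, adjusted p = 0.208) and xpc (0.50 ± 0.39, adjusted p = 0.581), named after their values were seen, also lay below the filter.

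In base excision and single-strand break repair 3 of 8 kept genes had a positive difference, and 0 were called. Neil1 had the largest, and hmgb1a, a DNA-bending chromatin protein, was next (0.30 ± 0.12). The lowest were hmgb1b (-0.31 ± 0.17), its paralog, and unga (-0.25 ± 0.23), a uracil glycosylase gene. The 2 glycosylase genes that were kept, neil1 and unga, thus had differences of opposite sign. Neil3, a further glycosylase gene named after its value was seen, lay well below the filter at a mean log2 of 4.68. It read 9.10 to 35.0 in light and 1.83 to 12.6 in the dark. Its difference without the filter was positive, like that of neil1, at 0.82 ± 0.27 (adjusted p = 0.178 by limma). The other genes of this list below the filter were apex2 (0.53), tdp1 (0.23), xrcc1 (-0.13) and parp2 (-0.50).

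In double-strand break repair 10 of 15 kept genes had a positive difference, with a median of 0.08 log2, and 0 were called. Exo1, a nuclease that extends the resection of broken ends (0.54 ± 0.36), and mre11a were highest, and rad1 (-0.33 ± 0.24), of a checkpoint clamp, and rnf8 (-0.22 ± 0.14), a ubiquitin ligase, were lowest. Nbn, the partner of mre11a, fell just short of the filter. It read 37.1 to 102 in light and 18.0 to 120 in the dark, a difference of 0.32 ± 0.26 without the filter (adjusted p = 0.603 by limma). At CT22, where mre11a was lower in light, chek2 (-0.16 log2), xrcc6 (-0.55) and exo1 (-1.27) were lower too, named after their values were seen. Prkdc (0.64), rad1 (0.28), rbbp8 (0.21) and mdc1 (0.03) were higher there, and the rest of this list was lower. The share of all tested probe sets that were lower at CT22 was not taken. Chek2 and xrcc6 were higher at the other 5 times, as mre11a was, and exo1 was higher at 4 of 6 times.

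**Figure D4:**
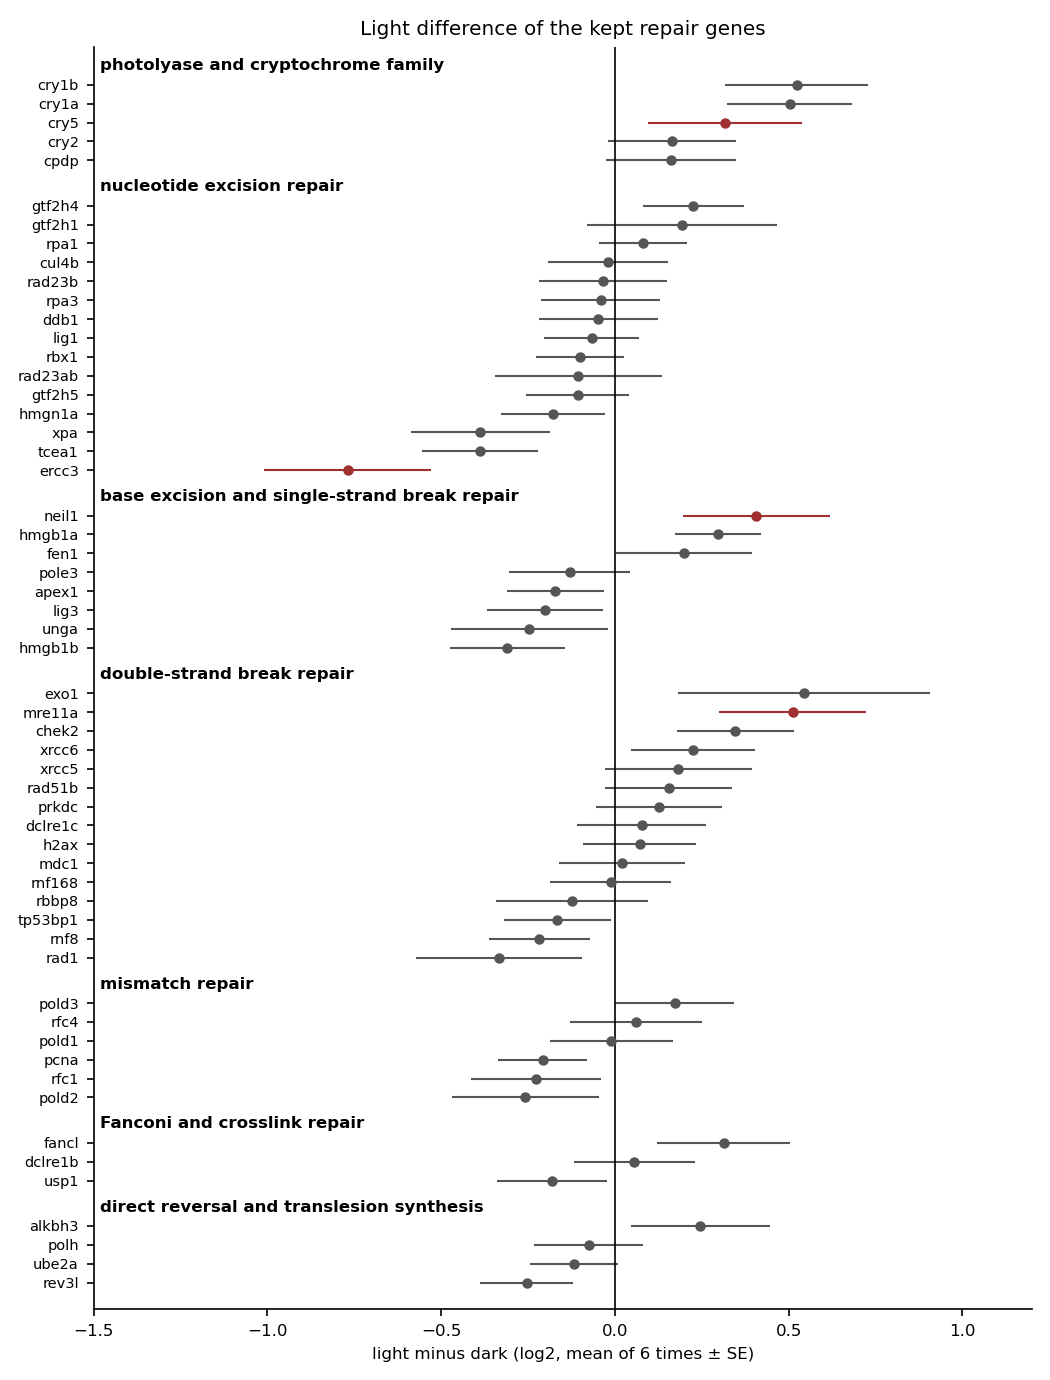
Mean light minus dark difference (log2) over 6 circadian times with its SE from limma, for the 56 kept genes of 7 repair lists, 1 probe set per gene. The members are in red. Ercc3 lies lowest of all, at -0.77, and neil1 and mre11a lie at or near the top of their lists, while none was called. Ercc3, neil1 and mre11a were chosen for small light p-values on these same arrays, so their places follow from that choice.

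The remaining repair lists were small. Of 6 kept mismatch repair and replication clamp genes 2 were positive, with pold3 (0.17) and rfc4 (0.06) highest and pold2 (-0.26) and rfc1 (-0.23) lowest. Of 3 Fanconi and crosslink genes fancl (0.31) and dclre1b (0.06) were positive and usp1 (-0.18) negative. Of 4 genes of direct reversal and translesion synthesis alkbh3 (0.25) was positive, and polh (-0.07), ube2a (-0.12) and rev3l (-0.25) were negative. Among 40 repair genes below the filter, 28 had a positive difference and 0 were called for light when no filter was set. The share of positive differences over all probe sets below the filter was not taken.

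Genes of p53 and damage signalling were not called for light either. Of 11 kept genes 6 were positive, with a median of 0.02 log2. Gadd45ga (0.42 ± 0.16) and gadd45bb (0.26 ± 0.20), stress-responsive growth arrest genes, were highest, and btg2 (-0.33 ± 0.23), an antiproliferative gene, and sesn3 (-0.28 ± 0.14), a sestrin, were lowest. Gadd45ga was called for time of day, with an amplitude of 0.64 ± 0.11 log2 and a peak at CT8.1 (adjusted p = 0.0139 by limma), which was not near the fitted peaks of cry5 or neil1. Markers of proliferating cells, which express many repair genes, had summed signals of 687 to 958 in light and 713 to 1016 in the dark over 7 kept genes.

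As a description of likeness, each member was set against 6024 other kept genes by Pearson correlation of log2 values over the 12 arrays, and the top 5 are named. For cry5 (S2) these were c3a.1 (0.93), clocka (0.91), hdgfl3 (0.91), ddx3xb (0.89) and txnl1 (0.89), clocka being the gene of the clock activator Clock. For neil1 they were tob1a (0.92), gpat4 (0.89), smim15 (0.89), higd1a (0.87) and fbxo44.9 (0.87). For mre11a they were rgs2 (0.93), pdzk1ip1 (0.93), alkbh3 (0.91), acvr2ba (0.90) and nudt21 (0.90), and for ercc3 they were mrps30 (0.84), tyw3 (0.84), rab10 (0.83), psme3ip1 (0.82) and lypla1 (0.82). Among these 20 genes only psme3ip1 was called for light, at -0.69 log2 (adjusted p = 0.0379 by limma). The alkbh3 gene, of direct DNA reversal, is the one gene of the repair lists among them.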

How the data were processed

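The authors deposited 1 linear MAS5 signal intensity per probe set and array, and the submitters' processing notes name GCOS and MAS5 without versions. After trimming 2% at each end the mean signal was 200.035 to 200.042 on every array, so the deposited intensities were already scaled, and no further scaling was applied. Per the labels' protocols, RNA was amplified in 2 rounds from an oligo(dT) primer, so signals come mainly from 3' ends. Of 15617 rows, 115 were control probe sets. Of the others, 10795 had 1 symbol, 135 several and 4572 none in the platform annotation. No positions or sequences are printed, as the array's genome build is not given in the sources used here.

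Signals were turned into log2(signal + 13), where 13 is their 10th percentile, and probe sets with a mean log2 value at or above the 40th percentile were kept (9301). Tests used limma 3.58.1 in R 4.3.3 with eBayes (trend), and two-sided p-values were adjusted by Benjamini-Hochberg over the kept probe sets. The pairing of light and dark arrays comes from the labels' time points. Where a gene had several probe sets, that with the highest mean log2 value stood for it in lists. Named were all member probe sets, called list genes and, per list, otherwise the 2 highest and the 2 lowest light differences. The members and lists were chosen with earlier results of these data known. In simulated arrays where 200 of 9301 probe sets were changed, limma found 66% of light differences of 1 log2 unit and 98.5% of those of 2. For time-of-day amplitudes of these sizes it found 89% and 99%, for light by cosine and sine 6.5% and 84.5%, and for night against day 0% and 68%. The simulated noise was independent for each probe set and array, with no shared effect of array, pool or spike-in class. These shares are over all changed probe sets, so they do not give the power for the members on the real arrays. Alternatives varied the pseudocount, filter, normalization, block, spike-in terms and arrays. The number of arrays limits the precision.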

Additional observations from a re-analysis of the deposited data

Results flagged for a closer look

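The dark array of CT22 stood apart for mre11a. Its linear signal of 128 was the highest of the 6 dark arrays. On the linear scale its gap to the next, 71.8, was 0.633 of the group's range, above Dixon's 95% critical value for 6 samples. On the log2 scale of the tests these values were 7.14 and 6.41, with the lowest at 5.70. There the gap was a smaller part of the range, below that critical value. The CT22 array was also the only dark one of the higher spike-in class, and the part of the class in the value was not tested. In all 15 groups of 6 values were examined, and chance flags about 1 in 20 such groups.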

How the results depend on the processing

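Of the members, only ercc3 passed the light threshold under any alternative, after quantile normalization (-0.94, adjusted p = 0.0458 by limma), and neil1 kept a positive light difference under all 14 alternatives (0.067 to 0.49). Terms for spike-in level changed signs. With spike-in level beside the time block the light difference was -0.23 for S2 of cry5 and -0.053 for mre11a. With spike-in class it was -0.017 for S1 and -0.41 for mre11a, and within the higher class, chosen after seeing the data, it was -0.021 for S1, -0.052 for S2 and -0.38 for mre11a. With class or within it the dark side is the CT22 array alone, so these values rest on 1 pool, which is assumed to vary like the others. The night minus day contrast near 0 also changed sign: leaving out 1 time point at a time it ran from -0.39 to 0.46 for S1, from -0.54 to 0.34 for ercc3 and from -0.43 to 0.23 for mre11a, and with a pseudocount of 50 it was 0.0089 for ercc3. The cause of these changes was not tested.

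Over all probe sets, 147 were called higher and 68 lower in light. Without a filter 44 were lower, with more probe sets adjusted over. The fit with no replicate block for the time points called 97 higher and 30 lower, and no member's call changed under it. With spike-in level 5 were higher and 3 lower, with spike-in class 3 higher and 0 lower (459 at an unadjusted p under 0.05), and within the higher class 0 and 0 (371 at an unadjusted p under 0.05), all by limma. Leaving out 1 time point gave 58 (without CT10) to 216 (without CT22) higher and 13 (without CT10) to 135 (without CT22) lower. Time-of-day calls numbered 184, against 20 on the dark arrays alone, 23 on the light arrays alone, and 48 (without CT10) to 121 (without CT14) with 1 time left out. Light by cosine and sine and night against day gave 0 to 1 call each, the 1 without CT22. A filter at the 60th percentile left S2 of cry5 as the only member tested. Signals near the filter limit what ercc3 and neil1 can show.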
